A study of Mus musculus with 4 samples.

Results

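Layer 6 corticothalamic (L6 CT) neurons are the excitatory cells of the deepest cortical layer that send axons back to the thalamus. In the nuclei measured here they were chosen by unique molecular identifier (UMI) counts, where 1 UMI stands for 1 captured RNA molecule. A nucleus was taken when it held at least 3 UMIs of the glutamate transporter gene Slc17a7, at most 1 UMI of Gad1 and Gad2 together, at least 5 of Foxp2, at least 1 of Syt6, at least 5 of Hs3st4 and at most 4 of Vwc2l. This gate took 898 of 26350 nuclei that passed the quality filters. The nuclei came from microdissected cortex of 4 wild-type C57BL/6JRj female mice about 12 weeks old, 1 library per mouse. The non-pregnant group had 2 mice and the pregnant group had 2 mice killed at E13.5 (the embryonic day), and no other treatment is given for either group. Nuclei were isolated in buffers with actinomycin D, which blocks transcription, and RNA was read from isolated nuclei and not from whole cells. No source used here gives the dissected area of cortex, so area and condition cannot be told apart.

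L6 CT neurons receive input from the thalamus and from other cortical layers, and their axons reach relay nuclei and the inhibitory reticular nucleus of the thalamus. By this loop they set the gain of sensory relay and shape sleep and wake rhythms. Their identity depends in development on the transcription factors Tbr1 and Sox5, and adult cells keep Foxp2, a forkhead factor, and Tle4, a co-repressor. Pregnancy exposes the brain to high oestrogen, progesterone, placental lactogens and relaxin.

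The libraries held 6932 and 6357 barcodes in the non-pregnant group and 6680 and 6847 in the pregnant group, with 97875766 and 116860425 against 107434942 and 101744881 UMIs. The L6 CT nuclei numbered 221 and 295 in the non-pregnant and 204 and 178 in the pregnant libraries. Their median depth was 13751 UMIs in non-pregnant replicate 1, which was the shallowest, 18916 in non-pregnant replicate 2, and 17387 and 18102 in the pregnant libraries. Among all barcodes 109 occurred in more than 1 library, 20 to 31 for each pair of libraries. The non-pregnant libraries stood apart from each other in 2 ways that bear on the results. The summed level of 25 immediate early and activity genes in L6 CT nuclei was 1717 CPM (counts scaled to equal library totals) in non-pregnant replicate 1 and 502 CPM in replicate 2, with 1326 and 1322 CPM in the pregnant libraries between them. The make-up of sub-clusters also differed between them, as described further on.

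The label was checked against 10 L6 CT markers that the gate does not use. Their summed level was 1246 and 1341 CPM in the non-pregnant and 1272 and 1366 CPM in the pregnant L6 CT nuclei, against 644 to 685 CPM in the excitatory nuclei outside the gate. Tle4 stood at 410 and 431 CPM in the non-pregnant and 497 and 494 CPM in the pregnant L6 CT nuclei, and at 59.3 to 93.7 CPM in the other excitatory nuclei. Crym, a thyroid hormone binding protein, stood at 52.8 to 91.6 CPM against 5.38 to 16.1 CPM. Ptprk went the other way, at 70.8 to 149 CPM inside and 405 to 485 CPM outside the gate. The 6 markers of layer 6b neurons, which border the white matter, summed to 25.0 and 7.80 CPM in the non-pregnant and 23.1 and 36.8 CPM in the pregnant L6 CT nuclei, against 14.1 to 29.0 CPM in other excitatory nuclei, so they were not lower inside the gate. Most of that sum was Nr4a2 (2.49 to 33.7 CPM), while Cplx3 was at most 0.498 CPM and Nxph4 at most 0.245 CPM. The 4 markers of layer 6 intratelencephalic (L6 IT) neurons, which project within the telencephalon, summed to 669 and 436 CPM against 722 and 695 CPM in pregnancy, and the groups did not overlap. Nearly all of it was Zfp804b and Cdh9, and Cdh9 was at 165 to 294 CPM inside and 33.5 to 71.4 CPM outside the gate. The 6 astrocyte markers summed to 737 and 694 against 822 and 765 CPM, nearly all from Slc1a2, with Gfap at most 0.519 CPM. The 4 markers of oligodendrocyte precursors summed to 5.55 and 7.96 against 14.96 and 17.1 CPM. Both lists were higher in both pregnant libraries, and the part of these markers in the results was not tested.

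The genes of the gate chose the nuclei and are given without a test. Foxp2 was at a median of 13 and 22 UMIs per nucleus in the non-pregnant libraries and 15 and 14 in the pregnant ones. Hs3st4, an enzyme that modifies heparan sulfate, was at 35 and 44 against 46 and 45, and Syt6, a synaptotagmin, at 2 and 3 against 2 and 2. In CPM, Slc17a7 was at 417 and 406 against 308 and 318, and Syt6 at 146 and 155 against 114 and 116.5. Foxp2 was at 844 and 1142 against 815 and 811 CPM, and Hs3st4 was higher in pregnancy, at 2367 and 2382 against 2612 and 2601 CPM. The part of these levels in which nuclei passed the fixed limits was not tested. Just inside the Foxp2 limit, at 5 UMIs, there were 35 nuclei with Tle4 at 566 CPM, and just outside, at 4 UMIs, 36 nuclei with Tle4 at 484 CPM. The Syt6 limit was the one with most nuclei near it. There were 325 nuclei at 1 UMI (Tle4 460 CPM) and 363 that met every other limit at 0 UMIs (Tle4 399.6 CPM). By library, 69 and 82 non-pregnant and 125 and 87 pregnant nuclei stood at 0 UMIs. They were among 290 and 377 against 329 and 265 nuclei that met every other limit. The Slc17a7 limit had 89 nuclei inside at 3 UMIs and 52 outside at 2. The limit on Gad1 and Gad2 had 69 nuclei at 1 UMI and 10 at 2, and no nucleus stood at 4 or 5 UMIs of Hs3st4. At the Vwc2l limit 6 nuclei held 4 UMIs and 2 held 5, with Tle4 at 231 and 253 CPM.

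The share of L6 CT nuclei was not shown to differ between the groups. It was 3.23% (Wilson 95% interval 2.84 to 3.67) and 4.71% (4.21 to 5.26) of kept nuclei in the non-pregnant libraries. The pregnant libraries had 3.11% (2.72 to 3.56) and 2.66% (2.30 to 3.08). Both pregnant values lay below both non-pregnant values, but non-pregnant replicate 1 and pregnant replicate 1 were close. Without the Syt6 limit the nuclei numbered 290 and 377 against 329 and 265, and these counts overlapped between the groups. The part of that limit in the difference in share was not tested. The means were 3.97% ± 1.05 and 2.89% ± 0.318 (SD, n = 2 each), a difference of -1.08 percentage points with an exact two-sided permutation p of 0.33, the smallest that 2 against 2 allows. Without non-pregnant replicate 2 the difference was -0.342 points. As a share of excitatory nuclei the values were 5.79% and 7.65% against 6.40% and 5.62%, and the groups overlapped (exact permutation p = 0.667). The intervals cover counting error only.

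Summed over the L6 CT nuclei of each library, 12343 genes were tested, of which 67 (0.543%) rose in pregnancy and 17 (0.138%) fell, or 0.681% in both directions. The test was the quasi-likelihood test of edgeR with p adjusted by Benjamini-Hochberg over all tested genes, and called means an adjusted p below 0.05. The 22 genes described first, 11 in each direction, are from the 12 ranked highest by p in each direction whose groups of libraries did not overlap. Of all tested genes 40.5% had groups that did not overlap, so lack of overlap alone is not a result about a gene. The median log2 fold change of all tested genes was -0.0039. From here on CPM values of single genes are scaled by edgeR's TMM factors. Those given above, and those of marker lists and of sub-clusters, are scaled by all UMIs of the same nuclei without these factors. In these sums less RNA per cell and fewer cells that express a gene cannot be told apart without the counts per nucleus, which are given for 3 genes.

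Genes of receptors and their ligands are described first among those that rose. Rxfp1 (ENSMUSG00000034009), the receptor for the hormone relaxin, stood at 20.8 and 14.1 CPM in the non-pregnant and 83.6 and 83.9 CPM in the pregnant libraries. The pregnant libraries were nearly equal and well above both others, and the log2 fold change was 2.30 (SE 0.167, adjusted p = 7.86e-05 by edgeR). Kitl, the ligand of the receptor kinase Kit, was at 17.8 and 13.1 against 49.4 and 41.1 CPM (log2 fold change 1.58, adjusted p = 0.00216 by edgeR). Kit itself, chosen here after its values were seen, was at 1.37 and 3.20 against 8.31 and 9.81 CPM (1.87, adjusted p = 0.0479 by edgeR). Kit was at a low level and close to the threshold. It lies outside the rule for named genes, and no value of Kit in other settings or classes is given here. Npr3, the clearance receptor for natriuretic peptides, was at 8.22 and 12.6 against 31.0 and 35.4 CPM (1.63, adjusted p = 0.00326 by edgeR). Grm3, a metabotropic glutamate receptor coupled to inhibitory G proteins, was abundant, at 647 and 616 against 1126 and 980.1 CPM (0.74, SE 0.102, adjusted p = 0.00527 by edgeR).

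A transcription factor and long noncoding RNAs were also among the genes that rose. Ikzf2 (ENSMUSG00000025997), which encodes Helios, a zinc finger factor of the Ikaros family, was at 11.2 and 10.9 CPM in the non-pregnant and 42.8 and 43.4 CPM in the pregnant L6 CT nuclei. The spread within each group was under 1 CPM, and the log2 fold change was 1.96 (SE 0.168, adjusted p = 1.67e-04 by edgeR). Norad, a cytoplasmic RNA that sequesters Pumilio proteins, was at 19.5 and 14.8 against 60.7 and 45.4 CPM (1.66, adjusted p = 0.00233 by edgeR). Oip5os1, another long noncoding RNA, was at 38.9 and 36.7 against 81.1 and 70.5 CPM (1.01, adjusted p = 0.00288 by edgeR). Cntnap4, a neurexin-like adhesion protein of synapses, was at 92.3 and 74.0 against 189 and 211 CPM (1.28, adjusted p = 4.55e-04 by edgeR). Hunk, a kinase related to the AMPK family, was at 28.5 and 32.0 against 67.5 and 87.8 CPM (1.35, adjusted p = 0.00181 by edgeR). In each of these the lowest pregnant library was above the highest non-pregnant one.

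Erbb4 and Dock10 were also among the genes that rose, and markers of oligodendrocytes, the myelin-forming glia, were higher in pregnancy too. Erbb4, a neuregulin receptor that inhibitory neurons express strongly, was at 11.8 and 16.3 against 38.5 and 42.9 CPM (log2 fold change 1.50), and Dock10, a guanine exchange factor, at 13.4 and 15.1 against 33.7 and 42.9 CPM (1.41). All 5 oligodendrocyte markers had higher pregnant values, and 4 of the 5 were called. Their summed level was 92.8 to 93.0 CPM in the non-pregnant and 167 to 187 CPM in the pregnant L6 CT nuclei. When 3 sub-clusters led by genes of other cell classes were left out, the sum was 57.1 to 67.3 against 53.3 to 66.3 CPM. The 10 inhibitory markers summed to 83.5 to 94.4 CPM in the non-pregnant and 111 to 170.2 CPM in the pregnant L6 CT nuclei. Without those sub-clusters they summed to 72.8 to 92.7 against 79.5 to 109 CPM. Erbb4 is itself among these 10, so their sum is not separate from its difference. Nxph1, also among them, was at 56.8 CPM in pregnant replicate 2 and 10.8 to 12.8 CPM in the other libraries. Without those sub-clusters Erbb4 was at a log2 fold change of 0.04 and Dock10 at -0.34, and neither was called. Their differences were thus not called in the L6 CT nuclei that remained. The 3 sub-clusters were left out together, and the part of any other cell class in these differences was not tested.

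Bcl2 had the smallest p of the genes described that fell. Bcl2 (ENSMUSG00000057329), which blocks the mitochondrial path of cell death, was at 112 and 109 CPM in the non-pregnant and 57.4 and 48.5 CPM in the pregnant L6 CT nuclei. The groups were far apart against a spread of a few CPM within each, and the log2 fold change was -1.06 (SE 0.117, adjusted p = 0.00158 by edgeR). Cbfa2t3, a transcriptional co-repressor, was at 38.9 and 41.0 against 21.7 and 20.7 CPM (-0.92, adjusted p = 0.0232 by edgeR). Cdyl2, a chromodomain protein, changed by -0.66, Ssbp3, a partner of LIM domain complexes, by -0.71, and Fam53b by -1.31. Of these 11 genes that fell, DESeq2 called 3 (Bcl2, Fstl4 and Sgsm1), while it called all 11 that rose.

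The other genes that fell include those of secreted and surface proteins. Fstl4, a follistatin-like secreted protein, was at 177 and 176 CPM in the non-pregnant and 107 and 89.6 CPM in the pregnant libraries (log2 fold change -0.84, adjusted p = 0.00288 by edgeR). Hgf, hepatocyte growth factor, was low throughout, at 11.0 and 6.39 against 1.76 and 1.81 CPM (-2.22, SE 0.429, adjusted p = 0.0356 by edgeR). Its pregnant values rest on 7 and 7 UMIs. Adgrl2, the adhesion receptor latrophilin 2, was at 226 and 217 against 166 and 131 CPM (-0.58, adjusted p = 0.0441 by edgeR). Col6a1, a collagen chain, changed by -0.62, Sgsm1, a regulator of small GTPases, by -0.87, and Serinc2 by -0.65. Their adjusted p by edgeR lay between 0.0373 and 0.0493, close to the threshold.

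**Figure D1:**
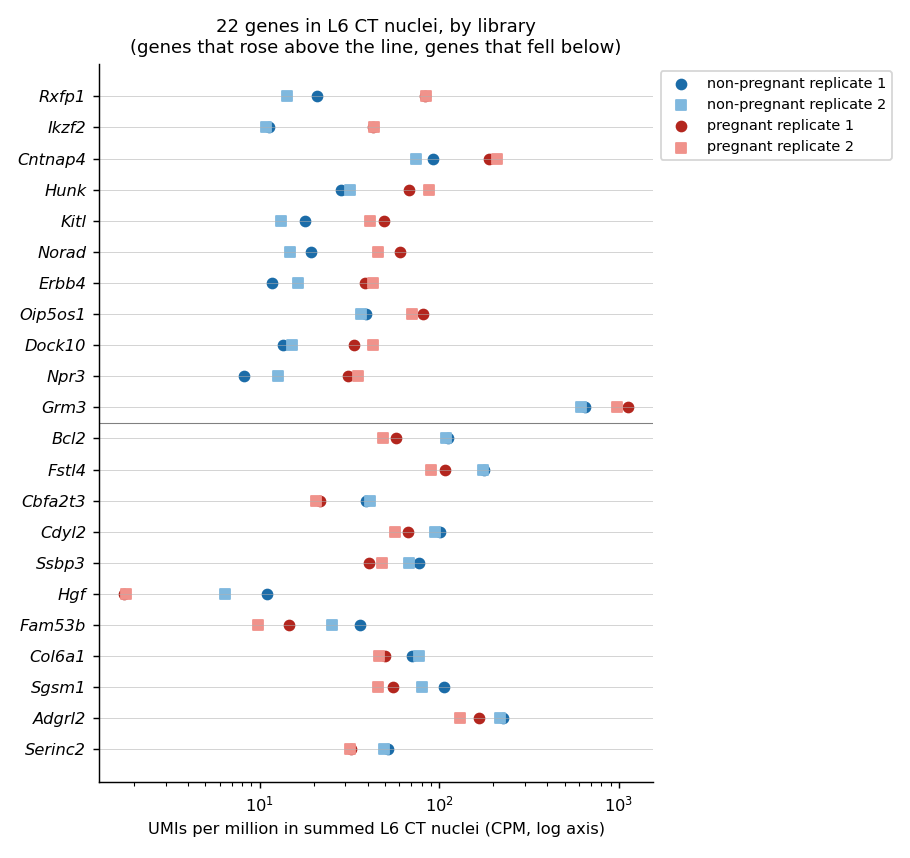
TMM-scaled CPM (log axis) of the 22 genes in the summed L6 CT nuclei of each library, 1 point per library, blue for non-pregnant and red for pregnant. For Rxfp1 the pregnant points lie at 83.6 and 83.9 CPM and the non-pregnant points at 14.1 and 20.8 CPM, and for Bcl2 the order is turned, with 48.5 and 57.4 against 109 and 112 CPM.

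Counts per nucleus show in how many L6 CT nuclei these RNAs were found. Nuclei were thinned to 10000 UMIs each so that depth was equal, which left out 24 and 10 non-pregnant and 3 and 1 pregnant L6 CT nuclei below that depth. Rxfp1 had a UMI in 13.7% and 9.12% of L6 CT nuclei of the non-pregnant libraries and in 39.3% and 39.6% of those of the pregnant libraries. Without thinning the shares were 16.3% and 13.9% against 49.0% and 50.6%. In other excitatory nuclei the thinned shares of Rxfp1 were 4.80% and 5.20% against 9.97% and 8.57%, and in inhibitory nuclei they were 10.4% to 14.4%. Non-pregnant L6 CT nuclei thus had Rxfp1 at a share near that of inhibitory nuclei, and the pregnant ones above it. Oligodendrocyte nuclei, taken here as the background for Rxfp1, were shallower (median 3398.5 UMIs in non-pregnant replicate 1) and were compared at 3000 UMIs per nucleus. There Rxfp1 was in 0.243% to 0.875% of them. L6 CT nuclei at 3000 UMIs had it in 5.43% and 3.73% without pregnancy and in 16.2% and 22.5% with it.

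At 10000 UMIs, Ikzf2 had a UMI in 8.12% and 8.07% of non-pregnant L6 CT nuclei, against 24.4% and 26.0% of those in pregnancy. In inhibitory nuclei the shares of Ikzf2 were 17.8% to 21.8%, and in other excitatory nuclei 9.93% and 13.2% against 16.9% and 19.2%. The non-pregnant L6 CT nuclei had lower shares than both other classes, but in replicate 1 the interval of the L6 CT share (5.06 to 12.8) takes in that of other excitatory nuclei. Oligodendrocyte nuclei held Ikzf2 more often than any of these, in 42.4% to 49.0% without thinning. With the 3 sub-clusters of other classes left out together, Ikzf2 was at a log2 fold change of 2.21 (adjusted p = 0.00147 by edgeR). That choice was made after seeing the data, and the part of oligodendrocyte RNA in the Ikzf2 difference was not tested.

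For Bcl2 the share of nuclei was lower in pregnancy. It had a UMI in 56.9% and 59.6% of non-pregnant L6 CT nuclei at 10000 UMIs, against 36.8% and 33.9% of those in pregnancy. In other excitatory nuclei the shares were 37.5% to 46.3%. At 3000 UMIs Bcl2 was in 29.4% and 24.4% against 17.6% and 13.48% of L6 CT nuclei, and in 0.938% to 2.08% of oligodendrocyte nuclei. Without thinning the shares of Bcl2 in L6 CT nuclei were 65.6% and 78.0% against 48.5% and 48.9%.

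**Figure D2:**
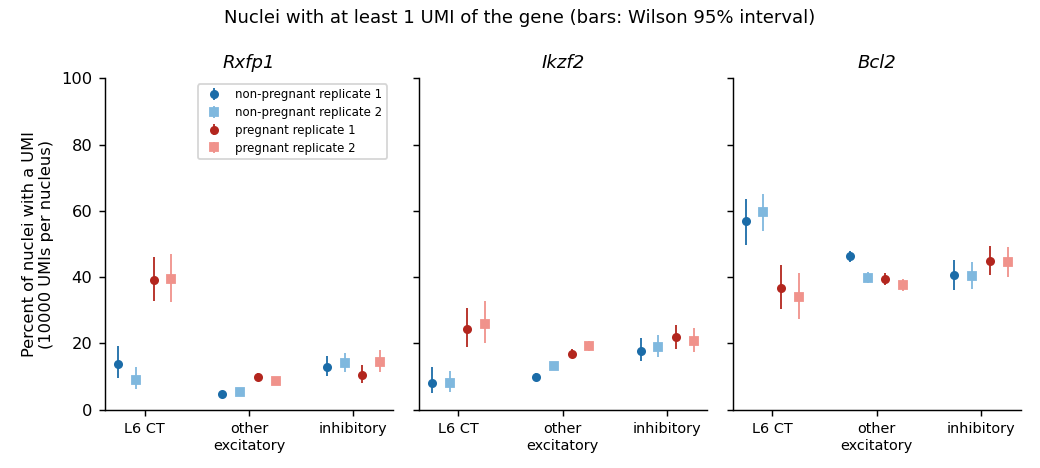
Percent of nuclei with at least 1 UMI of Rxfp1, Ikzf2 and Bcl2 after thinning to 10000 UMIs per nucleus, for L6 CT, other excitatory and inhibitory nuclei, 1 point per library with its Wilson 95% interval. In L6 CT nuclei the pregnant points of Rxfp1 lie at 39.3% and 39.6% against 13.7% and 9.12%, and those of Bcl2 at 36.8% and 33.9% against 56.9% and 59.6%.

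The gene lists for this cell type were chosen with earlier results of these data known. Their called counts are given beside a background of 0.681% called and are not read against it. Of 30 deep-layer transcription factors 3 rose and none fell, and the median log2 fold change was 0.13. These were Ikzf2, Tox, an HMG-box factor (198 and 138 against 441 and 389 CPM, log2 fold change 1.31), and Ldb2, a LIM domain binding cofactor (391 and 370 against 536 and 558 CPM, 0.53). Of the 3 Ikaros factors tested only Ikzf2 was called, and Ikzf4 stood at -0.58 (adjusted p = 0.298 by edgeR). None of the 10 L6 CT markers outside the gate was called, with a median of 0.08 and a range from -0.56 to 0.61. Crym came closest, at 0.61 (adjusted p = 0.0557 by edgeR). None of 8 cortical area factors was called.

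Among 19 hormone receptors tested, Rxfp1 was the 1 called. The progesterone receptor Pgr was at 51.0 and 68.1 against 63.2 and 68.2 CPM (log2 fold change 0.13, adjusted p = 0.850 by edgeR). The glucocorticoid receptor Nr3c1 was at 241 and 262 against 311 and 252 CPM (0.16, adjusted p = 0.701 by edgeR). Pgr and Nr3c1 overlapped between the groups. The prolactin receptor Prlr (2, 0, 0 and 0 UMIs in the 4 libraries), the oestrogen receptor Esr1 (4, 9, 6 and 13) and the oxytocin receptor Oxtr (0, 0, 1 and 0) were too low to test in these nuclei.

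Of 9 Bcl2 family genes tested, Bcl2 fell and no other was called. Bcl2l1, which encodes the survival protein Bcl-xL, was at 51.2 ± 1.26 and 53.9 ± 3.92 CPM (SD, n = 2 each; log2 fold change 0.08). Of 6 metabotropic glutamate receptors 1 (Grm3) rose, and the median was 0.21. None of 16 ionotropic glutamate receptor genes, 13 GABA receptor genes or 26 neuromodulator receptor genes was called, with medians of 0.08, 0.15 and 0.02. Of 47 potassium and HCN channel genes 2 rose. They were Kcna2, a delayed rectifier of axons (15.6 and 15.1 against 30.5 and 32.0 CPM, log2 fold change 1.02), and Kcnj3, a G protein gated channel (391 and 474 against 830 and 672 CPM, 0.79). Their adjusted p by edgeR was 0.0235 and 0.0268. Of 40 genes of vesicle release Unc13c, a priming factor, rose at a low level from 3.68 ± 0.215 to 10.3 ± 0.719 CPM (SD, n = 2 each).

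None of 27 sodium and calcium channel genes, 42 axon guidance genes, 21 cadherin genes or 18 heparan sulfate genes was called, and their medians lay between -0.06 and 0.06. The 24 immediate early and activity genes tested had a median of 0.50, with none called. Both pregnant libraries lay between the non-pregnant ones for 16 of the 24. Arc, a synaptic activity gene, was at 107 and 4.54 CPM in the non-pregnant and 62.7 and 53.7 CPM in the pregnant L6 CT nuclei. Fos was at 24.9 and 1.35 against 18.9 and 17.6 CPM.

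Other classes of nuclei from the same animals show which of these differences were larger in L6 CT nuclei. All 4 libraries also held 13133 excitatory nuclei outside the gate and 2409 inhibitory nuclei. The pregnancy effects of 2 classes were compared through the interaction term of class and pregnancy, with a block for each animal. Against the other excitatory nuclei 26 of 18235 genes were called (0.143%), and against inhibitory nuclei 30 of 15057 (0.199%). Of the 84 genes called in L6 CT nuclei 13 were among the first and 19 among the second. Within the other excitatory nuclei 374 of 19155 tested genes were called, and 30 of the 84 were called there in the same direction. Within inhibitory nuclei 29 of 14834 were called, and 6 of the 84 in the same direction.

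Of the 22 genes, 21 had the same sign in other excitatory nuclei and 15 in inhibitory nuclei, where Serinc2 was not tested. The share of all tested genes with the same sign was not counted. Within other excitatory nuclei 8 of the 22 were called, and within inhibitory nuclei 3. Outside the 22, Tox, Ldb2, Parm1 and Unc13c had log2 fold changes of 1.08, 0.86, 2.13 and 2.04 in other excitatory nuclei. None of them had a called difference between L6 CT and other excitatory nuclei. The difference from other excitatory nuclei was called for 5 of the 22. For Ikzf2 the other excitatory nuclei were at 13.1 and 18.1 against 25.3 and 26.3 CPM, and the effect in L6 CT nuclei was larger by 1.27 on the log2 scale (adjusted p = 0.00264 by edgeR). For Bcl2 they were at 76.1 and 64.2 against 60.1 and 54.4 CPM, a difference of effects of -0.79 (adjusted p = 0.00211 by edgeR). In both genes the other excitatory nuclei moved the same way by less. Grm3 (0.48), Dock10 (1.02) and Adgrl2 (-0.59) were the other 3. Adgrl2 was at 178 and 176 against 192 and 164 CPM in other excitatory nuclei and rose in inhibitory nuclei (51.5 and 53.2 against 101 and 75.9 CPM, log2 fold change 0.76, adjusted p = 0.0300 by edgeR).

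Rxfp1 had a larger effect in L6 CT than in inhibitory nuclei, where it was at 51.3 and 51.3 against 41.0 and 48.5 CPM (difference 2.50, adjusted p = 1.10e-05 by edgeR). Against other excitatory nuclei, at 11.1 and 15.6 against 20.0 and 18.5 CPM, the difference of 1.80 for Rxfp1 did not pass (adjusted p = 0.124 by edgeR). Kitl likewise differed from inhibitory nuclei (1.49, adjusted p = 0.00367 by edgeR) but not from other excitatory nuclei (1.42, adjusted p = 0.0965 by edgeR). Norad rose in all 3 classes, with log2 fold changes of 1.66, 1.19 and 1.38, and neither difference was called. Hbb-bs, a haemoglobin gene of red blood cells, also was higher in all 3 (3.21, 2.96 and 3.88). The 4 haemoglobin genes summed to 1.16 to 1.94 CPM in non-pregnant and 11.2 to 14.7 CPM in pregnant L6 CT nuclei, and mt-Co1, a mitochondrial gene, was at 5.21 and 6.05 against 13.6 and 18.8 CPM. Whether these RNAs from outside the nucleus bear on the other results was not tested.

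**Figure D3:**
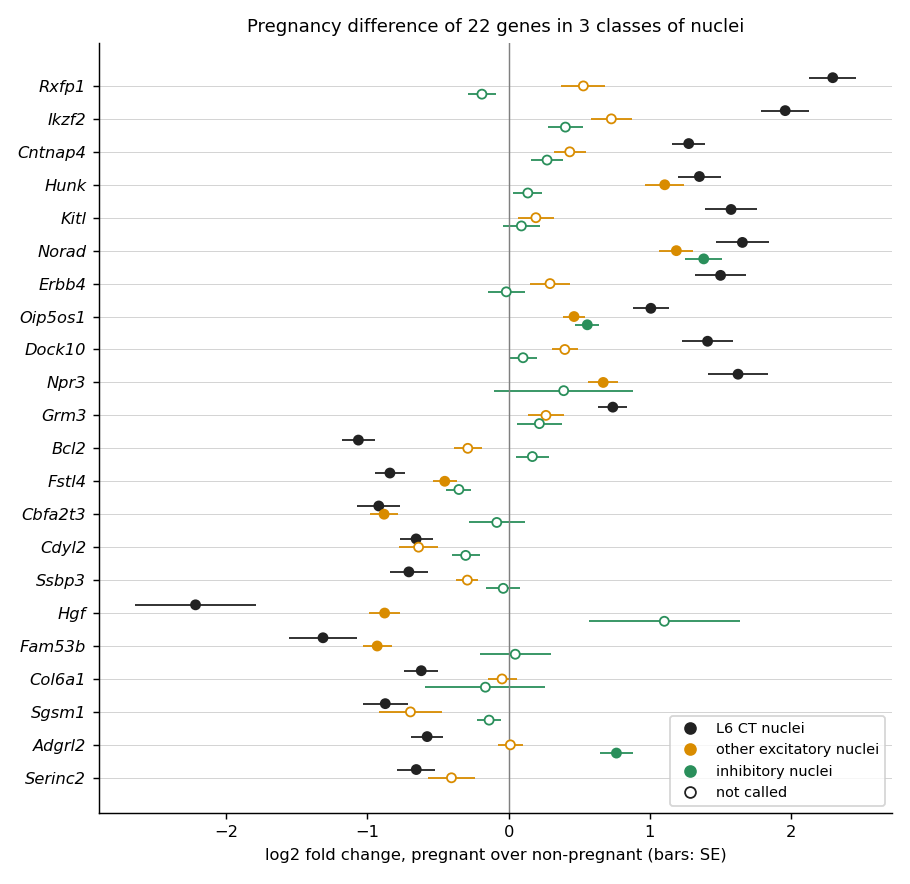
Log2 ratio (pregnant to non-pregnant, bars give the SE) of the 22 genes in L6 CT (black), other excitatory (orange) and inhibitory nuclei (green), where filled points passed edgeR's test at adjusted p below 0.05. Rxfp1 lies at 2.30 in L6 CT nuclei, 0.53 in other excitatory and -0.19 in inhibitory nuclei, and Norad lies above 1 in all 3.

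Markers of other deep-layer excitatory types also differed between the groups. The 6 L5 ET markers, of neurons that project out of the telencephalon, summed to 28.9 to 30.0 CPM in non-pregnant and 72.8 to 109 CPM in pregnant L6 CT nuclei. Npr3 and Parm1 (12.3 and 14.8 against 39.0 and 66.1 CPM, log2 fold change 1.93) carried that sum. Chrna6, a defining marker, had no UMI in any library of L6 CT nuclei, but it was at most 0.0733 CPM in the other excitatory nuclei too. The 6 L5/6 NP markers, of near-projecting neurons, summed to 10.8 to 22.2 against 63.3 to 79.5 CPM. Most of that was Tshz2, a zinc finger factor that neurons of retrosplenial cortex also express, at 12.3 and 4.37 against 71.3 and 50.9 CPM. It was not called in L6 CT nuclei (2.99, adjusted p = 0.209 by edgeR). In the other excitatory nuclei Tshz2 went from 56.7 and 37.9 to 362 and 345 CPM. The part of cell types or areas with these markers in the L6 CT results was not tested.

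Clustering the L6 CT nuclei without the gate genes and without the 1245 genes with unadjusted p below 0.05 gave 9 sub-clusters, which differed widely in size between libraries of one group. Sub-cluster 1, with Ddo and Brinp3 among its leading genes, held 25.8% and 19.0% of the non-pregnant and 23.5% and 15.7% of the pregnant L6 CT nuclei. Sub-cluster 3, led by Pdzrn4 and Cep112, held 19.0% and 2.37% against 34.8% and 32.6%. Sub-cluster 4, led by Cdh13 and Bmpr1b, held 23.1% and 5.76% against 9.31% and 14.6%. Sub-cluster 5, led by Brinp3 and Chn2, held 26.8% of non-pregnant replicate 2 and 4.07% to 5.62% of the other libraries. Sub-cluster 7, led by Htr4 and Dpyd, held 29.8% of non-pregnant replicate 2, 14.6% of pregnant replicate 2, 5.88% of non-pregnant replicate 1 and 4.90% of pregnant replicate 1. In sub-clusters 3, 5 and 7, non-pregnant replicate 1 was closer to the pregnant libraries than to non-pregnant replicate 2.

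Sub-clusters 2, 8 and 9 were led by genes of other classes. Sub-cluster 2 (93 nuclei) had Lingo2, Tafa1 and Rorb and median depths of 31294 to 38584 UMIs, and its summed L4/5 IT markers, of upper and middle layer neurons, were at 223 CPM against 10.8 CPM in the rest. Sub-cluster 8, with 2 and 5 nuclei of the non-pregnant libraries against 10 and 8 in pregnancy, had oligodendrocyte markers at 1781 CPM. Its inhibitory markers were at 721 CPM against 86.9 CPM in the rest, and its precursor markers at 98.8 against 7.64 CPM. Sub-cluster 9 held 3 and 1 against 2 and 0 nuclei with microglial markers at 749 CPM. No doublet caller was run, and whether such nuclei are doublets was not tested.

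**Figure D4:**
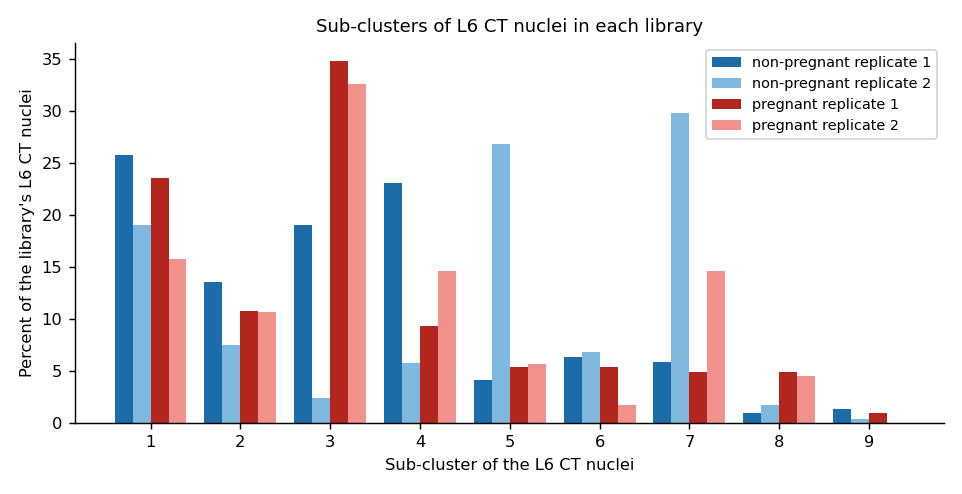
Percent of each library's L6 CT nuclei in each of the 9 sub-clusters, 1 bar per library. Sub-cluster 3 holds 34.8% and 32.6% of the pregnant and 19.0% and 2.37% of the non-pregnant nuclei, and non-pregnant replicate 2 stands out in sub-clusters 5 and 7.

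Values within sub-clusters show where in the L6 CT nuclei the genes differed. In sub-cluster 3 Rxfp1 was at 54.5 CPM in non-pregnant replicate 1, 0 UMIs in the 7 nuclei of non-pregnant replicate 2, and 149 and 175 CPM in the pregnant libraries. L6 IT markers summed to 1038 CPM in sub-cluster 3 against 512 CPM in the rest, and the L6 IT marker Zfp804b was among its 10 leading genes. The part of these markers in the Rxfp1 difference was not tested. In sub-cluster 7 Rxfp1 was at 10.4 and 17.3 against 66.9 and 84.8 CPM. In sub-cluster 1 it was at 12.8 and 17.4 against 20.2 and 14.7 CPM, where the groups overlapped. In sub-cluster 6, with 14 and 20 against 11 and 3 nuclei, it was at 61.9 and 8.16 against 9.50 and 0 CPM, which rests on few nuclei. The L5/6 NP markers in sub-cluster 6 summed to 176 CPM against 33.9 CPM in the rest. Its L6 CT markers outside the gate summed to 960 against 1328 CPM. Sub-cluster 6 was kept when sub-clusters 2, 8 and 9 were left out. Over sub-clusters 1, 3 and 7 the difference in Rxfp1 was uneven, and no test compared them. Bcl2 was lower in pregnancy in sub-cluster 1 (89.9 and 88.2 against 59.2 and 44.0 CPM), sub-cluster 4 (146 and 199 against 63.1 and 31.3 CPM) and sub-cluster 7 (114 and 102 against 47.8 and 42.4 CPM).

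In the 4 sub-clusters with at least 10 nuclei in every library (1, 2, 4 and 7), 5 of the 11 genes that rose had higher pregnant values without overlap in all 4, and another 5 in 3. The first 5 were Hunk, Kitl, Norad, Oip5os1 and Grm3. Dock10 did so in 1. Cntnap4, Erbb4 and Dock10 were each lower in pregnancy without overlap in 1 of the 4. Of the 11 that fell, Bcl2, Fstl4 and Cbfa2t3 were lower without overlap in all 4 sub-clusters, 3 genes in 3, 4 genes in 2 and Col6a1 in 1. Col6a1 was also higher without overlap in 1. No test was made within sub-clusters, and the share of all tested genes without overlap there was not counted. The genes were chosen for lack of overlap in sums that hold these same nuclei, so the counts are no separate support. Sub-cluster 2 among them was led by genes of other classes.

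Leaving out sub-clusters changed which genes passed. With sub-clusters 2, 8 and 9 left out, a choice made after seeing the data, the test called 38 genes. Of these 30 were among the 84, and 13 of the 22 genes passed. Hgf fell below the filter on low counts there and was not tested. Without sub-cluster 3, also chosen after seeing the data and for its unequal size, 36 genes were called and 11 of the 22 passed. Rxfp1 then was at 1.78 (adjusted p = 0.00225 by edgeR), Ikzf2 at 1.57 (0.0115) and Bcl2 at -1.04 (0.0148). Cntnap4 went from 1.28 to 0.77 (adjusted p = 0.148 by edgeR). With equal nuclei from sub-clusters 1, 2, 4 and 7 in every library, 74 per library, Rxfp1 was at 1.54 (adjusted p = 0.0209 by edgeR) and Ikzf2 at 1.24 (0.269). Bcl2 (-1.13), Norad (1.97), Hunk (1.36), Grm3 (0.74), Cntnap4 (0.98), Oip5os1 (1.14) and Fstl4 (-0.62) passed in that setting. Kitl (1.10), Npr3 (0.84), Erbb4 and Dock10 did not, nor did the described genes that fell other than Bcl2 and Fstl4. Sub-cluster 2, which was led by genes of other classes and held the deepest nuclei, is part of that setting.

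**Figure D5:**
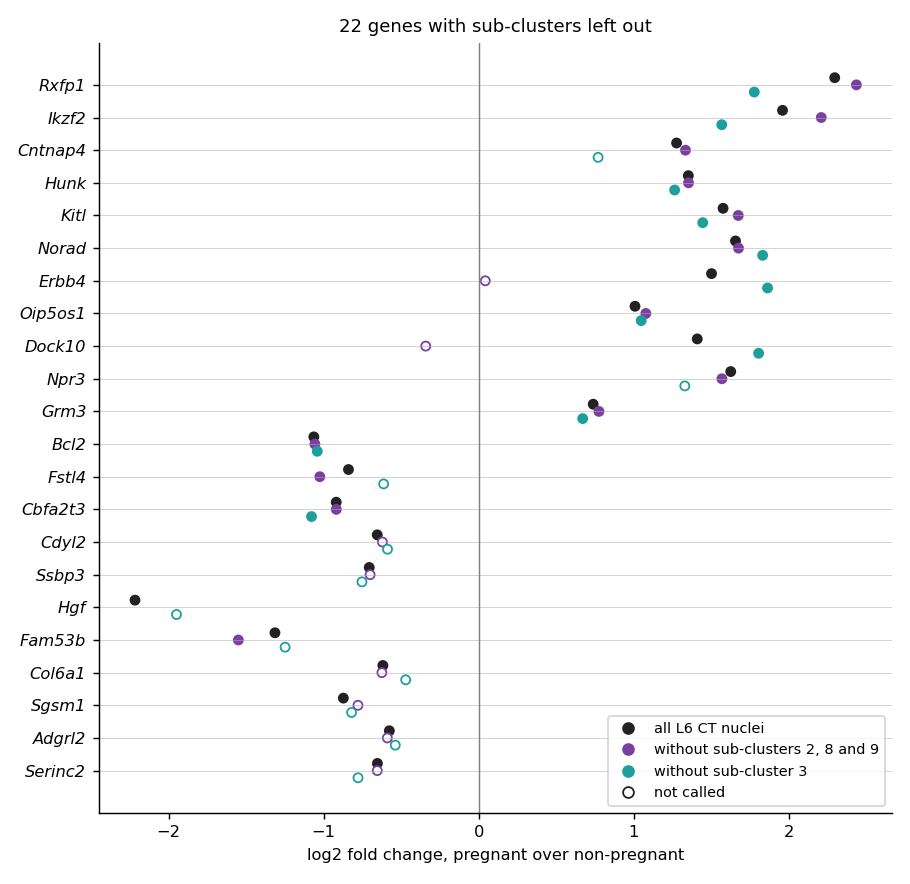
Log2 fold change of the 22 genes in all L6 CT nuclei (black), without sub-clusters 2, 8 and 9 (purple) and without sub-cluster 3 (teal), where filled points passed edgeR's test at adjusted p below 0.05. Dock10 and Erbb4 move to -0.34 and 0.04 without sub-clusters 2, 8 and 9, while Rxfp1 and Ikzf2 are at 2.44 and 2.21.

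The count of called genes also rested on single libraries. Without pregnant replicate 2 it was 23 and without pregnant replicate 1 it was 64, while without non-pregnant replicate 1 or 2 it was 667 and 406. In each of these the group with 1 library is assumed to vary like the other. Of the 22 genes 11 were called with every library left out in turn, among them Rxfp1 (2.01 to 2.57), Ikzf2 (1.94 to 1.98), Norad (1.43 to 1.85) and Bcl2 (-1.19 to -0.95). The other 11, Dock10 and every one of these that fell except Bcl2, lost the call without pregnant replicate 1 or 2, with the direction kept. Ldb2 (0.49 to 0.57), Kcna2 (0.99 to 1.06), Kcnj3 (0.64 to 0.94), Tox (1.07 to 1.59) and Unc13c (1.42 to 1.56) lost it likewise.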

How the data were processed

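Single-nucleus RNA of 4 libraries, 1 per mouse, was used. The deposited values are whole-number UMI counts per gene and nucleus, made by the authors with Cell Ranger 10.0.0 and GRCm39 per the submitters' processing notes, for 33696 genes, and empty droplets were not used here. Barcodes with at least 500 genes and at most 5% mitochondrial UMIs were kept. The gate was applied to raw UMIs, with no doublet caller and no removal of free RNA. UMIs were summed per library and class (3600770 to 6026472 UMIs per library in L6 CT nuclei) and tested with edgeR 4.0.16 in R 4.3.3 (robust quasi-likelihood test, TMM, filterByExpr with a minimum count of 10). Inhibitory nuclei held at least 3 UMIs of Gad1 and Gad2 and at most 1 of Slc17a7. Nuclei were sub-clustered with scanpy 1.11.5 (1000 variable genes, 15 components, 15 neighbours, Leiden resolution 0.5). Clustering was run in 3 versions, and the one kept gave the most sub-clusters with nuclei in every library, which was chosen after seeing the data. The rule for named genes takes the 12 genes that rose and 12 that fell with the smallest p without overlap of groups, up to 5 members of each gene list, 5 hormone receptors and the gate genes, and only a part of these is printed. A few of them are not reported here, and counts over the 22 described genes leave them out. Predicted genes, 6 of the called ones, are counted and not named. The members and lists were chosen with earlier results of these data known. Alternatives were DESeq2 1.42.0, other size factors, no filter, other gates, thinning, equal numbers of nuclei, left-out libraries and left-out sub-clusters. The tests were tried on simulated data first.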

Additional observations from a re-analysis of the deposited data

Results flagged for a closer look

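For 5 of the 22 genes the pregnancy effect in L6 CT nuclei differed from that in the other excitatory nuclei of the same animals, by edgeR's interaction test adjusted over all genes. The effect in L6 CT nuclei was higher by 1.27 on the log2 scale for Ikzf2, by 1.02 for Dock10 and by 0.48 for Grm3. The difference was -0.79 for Bcl2 and -0.59 for Adgrl2. The log2 fold change of Dock10 in L6 CT nuclei was -0.34 without sub-clusters 2, 8 and 9, which were left out together, and the part of each was not tested.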

How the results depend on the processing

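The 84 called genes became 358 with no filter on low counts, 40 with DESeq2, 166 without the Vwc2l limit, 27 with a gate on thinned nuclei, 55 with equal nuclei per library, 29 with equal nuclei per sub-cluster, 27 without the nuclei richest in markers of other types, 38 without sub-clusters led by genes of other classes and 36 without sub-cluster 3; the cause was not tested. With RLE size factors it was 89 and with a stricter gate 110. Leaving out 1 library gave 23 to 667. The replicate block gave 150 called genes, and the deviations of equal numbers did not correlate (Pearson r = 0.0356 over 12343 genes), so the numbers are not taken as pairs. The count of genes that differed from other excitatory nuclei went from 26 to 184 with no filter and to 103 to 291 with 1 library left out, and that from inhibitory nuclei from 30 to 184 and to 42 to 302. The difference in share kept its direction in all settings, from -1.82 to -0.342 points with 1 library left out. None of these settings dropped the Syt6 limit. Dock10 turned to -0.096 without the marker-rich nuclei and to -0.34 without sub-clusters led by genes of other classes, where Mbp was at -0.14. Homer1 and Arc, not called with all libraries, ranged from -0.358 to 0.946 and from -0.881 to 3.68 with 1 library left out, and turned without non-pregnant replicate 2. Of 34 named genes that were called, 13 did not pass with DESeq2, 17 with the gate on thinned nuclei, 20 with equal nuclei per sub-cluster, 11 without pregnant replicate 1 and 17 without pregnant replicate 2. With 2 animals per group and 178 to 295 nuclei per library, small changes of genes with few UMIs could not be detected.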
